A study of Mus musculus with 12 samples.

Results

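The 10 genes of MHC class II antigen presentation described here, Cd74, H2-Aa, H2-Ab1, H2-Eb1, H2-DMa, H2-DMb1, Ciita, Ctss, Cd86 and Ifi30, were measured in liver RNA-seq libraries of 12 mice. They were chosen by name, out of 52636 genes counted, and all 10 passed the minimum mean count of 12 that left 12453 genes for testing. The mice were C57Bl/6J males taken at 16 weeks of age, and each gave 1 library. The 6 VDD-F1 mice were born to dams that ate a diet without vitamin D before mating and during pregnancy, with calcium gluconate as a supplement. The 6 VDS-F1 mice were born to dams on a matched diet with sufficient vitamin D. From delivery onward all dams had the vitamin D sufficient diet, and so did the offspring after weaning. The study's authors state that vitamin D in the dams recovers slowly, so the exposure of VDD-F1 reached into early postnatal life. Whether littermates are among them is not given in the sources used here, and p-values measure the spread between these mice.

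MHC class II molecules hold peptides from engulfed material at the cell surface, where helper T cells read them. Dendritic cells, B cells and macrophages carry most of them, and in the liver Kupffer cells and sinusoidal endothelial cells are also known to present antigen, while hepatocytes carry little at rest. An α and a β chain assemble on the invariant chain (Cd74), proteases such as cathepsin S (Ctss) trim that chain, the thiol reductase Ifi30 opens disulfide bonds of the antigen, and H2-DM exchanges the last fragment for a peptide. The transactivator Ciita switches the class II genes on together, acting through proteins bound to the X and Y boxes of their promoters.

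Promoter pieces are shown for 2 chain genes that varied together from mouse to mouse, H2-Aa and H2-Eb1. Pieces are also shown for 2 related genes of the region below the minimum mean count, H2-Ob and H2-DMb2. H2-Ob also matched the letters searched for both boxes, and H2-DMb2 only those for the Y box. RefSeq promoter windows on GRCm38.p6, from 250 bases before to 50 after the transcription start, were at hand for H2-Aa, H2-Eb1, H2-DMa, H2-DMb1, Ctss and Ifi30, and not for Cd74, H2-Ab1, Ciita and Cd86. The letters searched on both strands were TGATTGG for the Y box and GNAAC for the core of the X box, beginning 15 to 40 bases before it, and were chosen after the sequences had been seen. Of these 6 members, 3 matched the letters of both boxes, namely H2-Aa, H2-Eb1 and H2-DMb1. A missing match to these letters does not show that a box is absent. The pair was present in 0.6819% of all 32851 promoter windows and the Y box in 7.8171%. Pieces of 77 bases follow, with the boxes in capitals, from H2-Aa (chr17:34287847-34287923, minus strand), H2-Eb1 (chr17:34305756-34305832, plus strand), the related H2-Ob (chr17:34238796-34238872, plus strand) and H2-DMb2 (chr17:34145107-34145183, plus strand), in which only the Y box matched.
H2-Aa: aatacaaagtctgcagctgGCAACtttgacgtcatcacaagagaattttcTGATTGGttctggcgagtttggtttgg
H2-Eb1: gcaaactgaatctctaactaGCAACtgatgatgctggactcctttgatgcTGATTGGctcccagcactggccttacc
H2-Ob: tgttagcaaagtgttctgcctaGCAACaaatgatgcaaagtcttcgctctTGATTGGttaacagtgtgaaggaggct
H2-DMb2: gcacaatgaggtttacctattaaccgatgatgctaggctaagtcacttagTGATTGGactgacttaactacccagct
The X core began 31 bases before the Y box in H2-Aa, 30 in H2-Eb1 and 28 in H2-Ob. H2-DMa, Ctss and Ifi30 had no match to the letters of the Y box within the windows.

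Each library held 25897868 to 36403413 fragments, of which 14275793 to 20815066 were counted on genes. In the VDS6 library 11.1% of fragments lay outside genes, the highest of the 12. For 7 mice, VDS3 to VDS6 and VDD4 to VDD6, the study records a liver weight, and for the other 5 it does not, so comparisons were repeated within these sets. VDD2 stood apart from the other mice for most members, and the members' diet differences are given with and without it. Levels are given as CPM, the counts scaled to a common library size after TMM normalization, and levels of different genes are compared only per kilobase of exon.

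No member was called between VDD-F1 and VDS-F1, and all 10 had a positive fold change. Without the mouse VDD2, log2 fold changes lay between -0.16 and 0.18 for every member but Ciita, which was at 0.56. By the quasi-likelihood test of edgeR, adjusted after Benjamini-Hochberg, 0 of 10 members had an adjusted p under 0.05, beside 5 of the 12453 genes tested (0.0402%). At an unadjusted p under 0.05, 1 member (Ciita) was higher in VDD-F1 and 0 were lower, where 9.55% of all genes were higher and 6.29% lower. The median log2 fold change of the members was 0.57, and that of all genes tested was 0.0041. Without VDD2 the members' median was 0.06 and 0 of 10 had an unadjusted p under 0.05, beside 7.32% of genes higher and 5.27% lower. Without VDD1, 6 members were higher at the unadjusted threshold, beside 11% of genes, and without VDD3, 4 were, beside 10.5% of genes. Without VDD4, VDD5 or any of VDS1 to VDS5, 0 passed it, beside 7.71% to 9.59% of genes higher in these fits. The groups overlapped for all 10 members, while 1.18% of genes tested did not overlap. In bulk liver, a change in the number of cells of a type and a change in RNA per cell cannot be told apart.

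**Figure D1:**
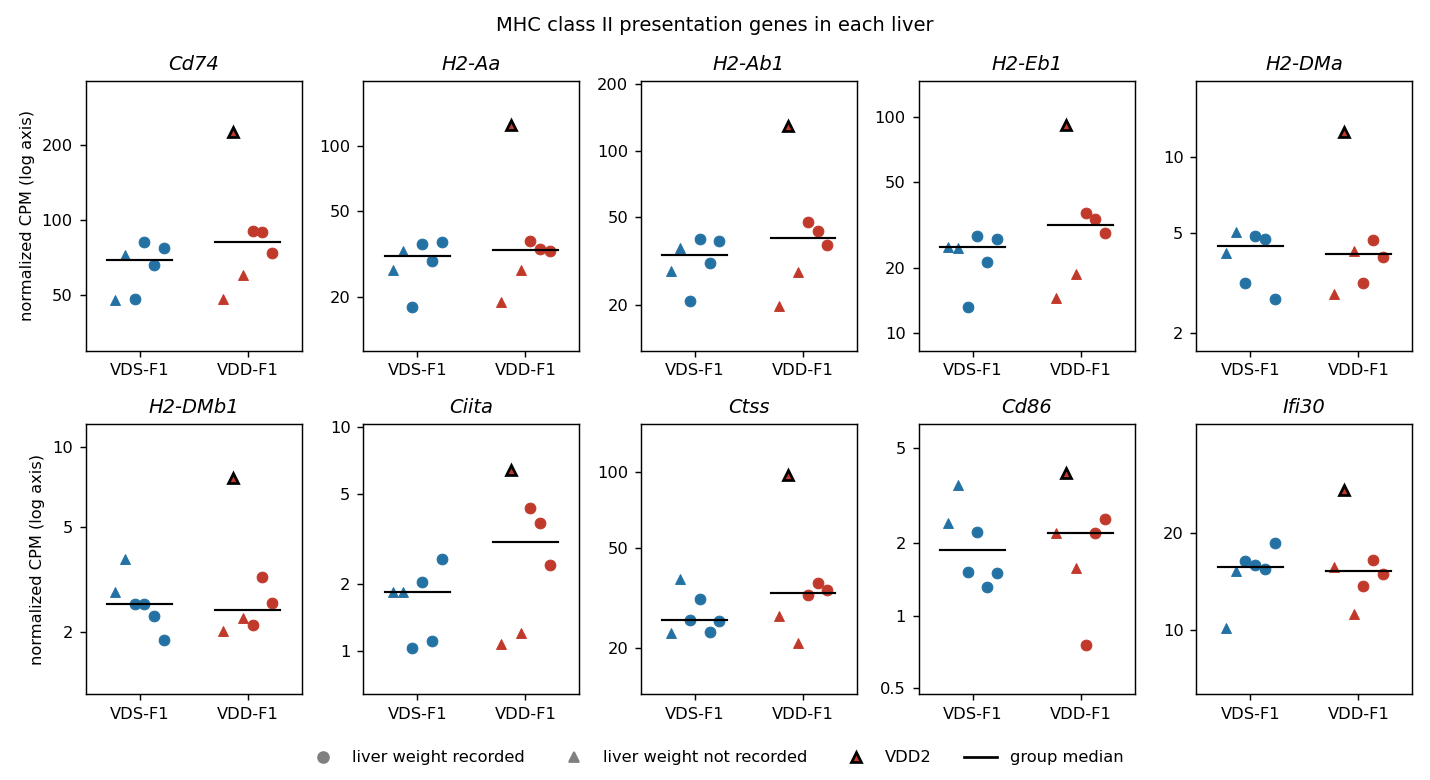
Normalized CPM (log axis) of the 10 genes in each mouse, by prenatal diet; circles are mice with and triangles mice without a recorded liver weight, bars are medians of 6 mice, and the black outline marks VDD2. VDD2 is the highest mouse in all 10 panels, and the groups overlap in each.

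The classical chains H2-Aa, H2-Ab1 and H2-Eb1, which form the peptide groove, lie within the class II region of chromosome 17 (GRCm38 chr17:34282744-34287823 on the minus strand, chr17:34257689-34269419 and chr17:34305867-34316674 on the plus strand). H2-Eb1, a β chain, was counted at 14.5, 91.3, 18.8, 35.8, 33.8 and 29.0 CPM in VDD1 to VDD6, and at 25.0, 24.7, 13.3, 28.2, 21.2 and 27.1 CPM in VDS1 to VDS6. Of the VDD-F1 mice 4, VDD2, VDD4, VDD5 and VDD6, lay above every VDS-F1 mouse, and VDD1 and VDD3 lay among the lowest, so the groups overlapped. The log2 fold change of H2-Eb1 was 0.68 (SE 0.36, 95% interval -0.09 to 1.45, adjusted p = 0.378 by edgeR quasi-likelihood, Benjamini-Hochberg adjusted). Without VDD2 it was 0.18 (95% interval -0.33 to 0.69).

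H2-Ab1, the β chain of the A molecule, had levels of 19.9, 129, 28.2, 47.6, 43.2 and 37.5 CPM in VDD1 to VDD6. In VDS-F1 its lowest, median and highest levels were 21, 33.8 and 39.9 CPM. VDD2, VDD4 and VDD5 lay above every VDS-F1 mouse, and VDD1 was the lowest of all 12. Its log2 fold change was 0.64 (SE 0.36, 95% interval -0.13 to 1.41) and 0.11 (95% interval -0.35 to 0.57) without VDD2. H2-Aa, the α chain that pairs with it, was at 19.0, 124, 26.7, 36.2, 33.1 and 32.6 CPM in VDD1 to VDD6 and between 18 and 35.9 CPM in VDS-F1, with a median of 30.9. Apart from VDD2, only VDD4 exceeded the highest VDS-F1 mouse, and by little. The log2 fold change of H2-Aa was 0.62 (SE 0.38, 95% interval -0.19 to 1.43), and without VDD2 no difference was left, at -0.00034 (95% interval -0.40 to 0.40).

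The other chains of the region were scarce. C57BL/6 mice are known to lack a working Ea gene, and H2-Ea-ps had 0 counts in all 12 libraries, where 3 counts in a library equal 0.144 to 0.21 CPM (counting error only). Ea would encode the α chain that pairs with the product of H2-Eb1. H2-Eb2, a further β chain gene, had at most 9 counts, in VDD2, and 0 in 7 mice.

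Cd74, the invariant chain, which fills the groove until the chains reach the endosome, lies on chromosome 18 (GRCm38 60803848 to 60812652, plus strand) and was the most abundant member per length. Its levels were 48.2, 225, 60.6, 90.3, 89.7 and 73.9 CPM in VDD1 to VDD6 and 48.1, 72.3, 48.5, 82.1, 66.0 and 77.6 CPM in VDS1 to VDS6. VDD2, VDD4 and VDD5 lay above every VDS-F1 mouse, and VDD1 lay beside the lowest of them. The log2 fold change of Cd74 was 0.57 (SE 0.31, 95% interval -0.09 to 1.23, adjusted p = 0.384 by edgeR quasi-likelihood, Benjamini-Hochberg adjusted). Without VDD2 it was 0.14 (95% interval -0.26 to 0.54), which is a fold of 0.837 to 1.45.

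H2-DMa and H2-DMb1 encode the α and a β chain of the peptide editor H2-DM. H2-DMa had lowest, median and highest levels of 2.84, 4.11 and 12.5 CPM in VDD-F1 and 2.72, 4.43 and 5.02 CPM in VDS-F1. H2-DMb1 had 2.02, 2.41 and 7.62 CPM in VDD-F1 and 1.86, 2.55 and 3.78 CPM in VDS-F1. For both, VDD2 was the only VDD-F1 mouse above the VDS-F1 mice, and the VDD-F1 median was the lower of the 2 medians. The log2 fold changes were 0.35 (95% interval -0.35 to 1.06) for H2-DMa and 0.33 (95% interval -0.37 to 1.03) for H2-DMb1, and -0.12 and -0.11 without VDD2. H2-DMa shares its locus with Brd2 on the opposite strand, which was kept apart by the strand.

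H2-DMb2, the second β chain gene of the editor, was high relative to H2-DMb1 in 4 of the 6 VDD-F1 mice. It had 5, 35, 4, 23, 23 and 14 counts in VDD1 to VDD6 and 2 to 11 counts in VDS-F1, and its mean was below the minimum for testing. With no filter on low counts its log2 fold change was 1.61 (unadjusted p = 0.00650, edgeR adjusted p = 0.201). VDD2, VDD4, VDD5 and VDD6, at 1.83, 1.58, 1.21 and 0.653 CPM, lay above the highest VDS-F1 mouse, at 0.543 CPM. Per length, the ratio of H2-DMb2 to H2-DMb1 was 0.714 in VDD4, 0.363 in VDD5, 0.245 in VDD6 and 0.231 in VDD2. It was 0.150 in VDD1 and 0.128 in VDD3, within the 0.0583 to 0.186 of VDS-F1. The split of reads between these near-identical genes is uncertain, since only fragments that map to 1 place were counted.

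Ciita, the transactivator, on chromosome 16 (GRCm38 chr16:10480059-10528418, plus strand), had the largest fold change among the members and one of the lowest counts. It was at 1.07, 6.42, 1.21, 4.33, 3.73 and 2.42 CPM in VDD1 to VDD6 and at 1.83, 1.83, 1.03, 2.03, 1.11 and 2.58 CPM in VDS1 to VDS6. These levels rest on 15 to 123 counts per library. VDD2, VDD4 and VDD5 lay above every VDS-F1 mouse, and VDD1 and VDD3 lay near the bottom of the VDS-F1 range. The log2 fold change was 0.88 (SE 0.41, 95% interval 0.01 to 1.76, unadjusted p = 0.0470), with an adjusted p of 0.309 by edgeR quasi-likelihood, Benjamini-Hochberg adjusted. Without VDD2 it was 0.56 (95% interval -0.26 to 1.37, unadjusted p = 0.164). Dexi overlaps Ciita on the opposite strand.

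Ctss, cathepsin S, the protease that degrades the invariant chain, was at 26.7, 97.1, 20.9, 32.5, 36.1 and 33.9 CPM in VDD1 to VDD6 and at 22.9, 37.6, 25.8, 31.2, 23.1 and 25.6 CPM in VDS1 to VDS6. VDD2 alone exceeded VDS2, the highest VDS-F1 mouse. The log2 fold change was 0.57 (SE 0.31, 95% interval -0.08 to 1.23) and 0.12 without VDD2 (95% interval -0.23 to 0.46). Ifi30, the lysosomal thiol reductase, varied least between mice of the VDS-F1 group, at 10.2, 15.6 and 18.6 CPM (lowest, median and highest), and was at 11.2, 15.3 and 27.0 CPM in VDD-F1. Its log2 fold change was 0.11 (95% interval -0.29 to 0.52), and -0.08 without VDD2.

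Cd86, a costimulatory ligand that T cells need beside the peptide, was the member least like the others. Its lowest, median and highest levels were 0.755, 2.21 and 3.91 CPM in VDD-F1 and 1.32, 1.87 and 3.48 CPM in VDS-F1. VDD4, which was high for Cd74, the chains and Ciita, had the lowest Cd86 of all 12 mice, from 11 counts. The log2 fold change was 0.08 (SE 0.35, 95% interval -0.66 to 0.82), an interval that does not exclude a change in either direction.

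**Figure D2:**
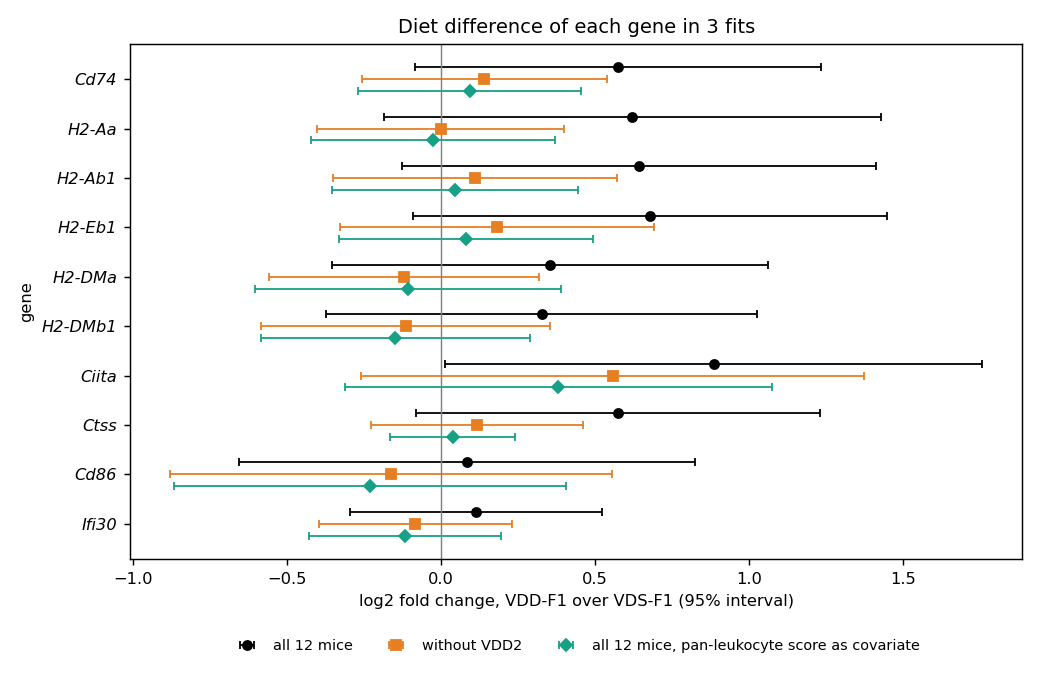
Log2 fold change of VDD-F1 over VDS-F1 with its 95% interval for each gene, in all 12 mice (black), without VDD2 (orange) and in all 12 mice with a pan-leukocyte score as a covariate (green). The interval of Ciita in all 12 mice, 0.01 to 1.76, is the only 1 of the 30 that lies above 0.

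The members were not equally abundant. In VDS-F1 mice the mean level was 39.2 ± 8.68 CPM per kilobase of exon for Cd74, 20.4 ± 4.21 for Ctss, 15.6 ± 2.84 for Ifi30, 12.7 ± 2.82 for H2-Ab1, 12 ± 2.80 for H2-Eb1 and 7.77 ± 1.75 for H2-Aa (SD, n = 6). The editor genes H2-DMb1 and H2-DMa followed at 1.57 ± 0.383 and 1.19 ± 0.277 CPM per kilobase, then Cd86 at 0.568 ± 0.223 and Ciita at 0.182 ± 0.0611. Neighbours from Ctss down to H2-Aa overlapped within 1 SD of each mean, as did H2-DMb1 and H2-DMa, while Cd74 and Ctss, H2-Aa and H2-DMb1, H2-DMa and Cd86, and Cd86 and Ciita did not. Exon length was that of all annotated exons merged, which lowers the value of genes with long rare exons.

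Among the VDD-F1 mice the members separated VDD2, 3 intermediate mice and 2 low ones. The summed level of the 10 members was 724 CPM in VDD2, 267 in VDD4, 266 in VDD5, 233 in VDD6, 176 in VDD3 and 152 in VDD1, and 151 to 244 CPM in VDS-F1. VDD2 had the highest level of the 12 mice for all 10 members, as for 18.6% of genes tested, and at least 2 times that of every other mouse for 7 of 10, as for 1.97% of genes tested. VDD4 exceeded every VDS-F1 mouse for 5 members (18.7% of genes tested), VDD5 for 4 (19.6%), VDD6 for 1 (20.6%), and VDD1 (14.9%) and VDD3 (18.4%) for 0. The low mice VDD1 and VDD3 and the high mouse VDD2 are the 3 VDD-F1 mice without a recorded liver weight.

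In the 7 mice with a recorded liver weight, 3 VDD-F1 against 4 VDS-F1, 0 of 10 members were called by edgeR quasi-likelihood, Benjamini-Hochberg adjusted, beside 11% of all genes. At an unadjusted p under 0.05, 3 members were higher, Ctss (log2 fold change 0.37, SE 0.12, unadjusted p = 0.00884), Ciita (1.03, SE 0.35, unadjusted p = 0.0129) and H2-Eb1 (0.55, SE 0.21, unadjusted p = 0.0235), beside 12.9% of genes that were higher. Their adjusted p-values from the same edgeR test were 0.0691, 0.0859 and 0.124. For H2-Eb1 and Ctss, every one of these VDD-F1 mice lay above every one of these VDS-F1 mice, as for 12% of genes. Ifi30 went the other way there, at -0.14 (SE 0.12). In the 5 mice without a recorded weight, 3 (VDD2 among them) against 2, the log2 fold changes ran from -0.18 for Cd86 to 0.95 for H2-Aa, with an edgeR adjusted p of 0.999 for each. The diet effect was not shown to differ between the sets for any member, with a lowest unadjusted p of 0.108 for the interaction (Ifi30).

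Cd74, the chains and Ciita varied together across mice. Over 12 mice, the log2 CPM of Cd74 correlated with H2-Ab1 at r = 0.98 (rho = 0.96), H2-Aa at r = 0.97 (rho = 0.94), H2-Eb1 at r = 0.95 (rho = 0.87) and Ciita at r = 0.86 (rho = 0.90), with a permutation p of at most 0.00011 for r and 0.00046 for rho (two-sided, 100000 resamples, adjusted over 9 relations at most 0.00025 and 0.001). The smallest p these resamples can give is 1e-05. Without VDD2 and VDS1, the mice farthest from the median of Cd74, r was 0.99, 0.95, 0.99 and 0.90 in the same order. Within the 7 mice with a recorded liver weight it was 0.99, 0.94, 0.98 and 0.88, with an exact permutation p of at most 0.00655 and at most 0.0147 after Benjamini-Hochberg adjustment. The genes of a mouse share its library scaling, and no correlation is given for the set of 5 mice.

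The processing genes and Cd86 did not hold to this pattern once VDD2 and VDS1 were out. For Ctss, r with Cd74 fell from 0.90 over 12 mice (rho = 0.68, permutation p = 0.0015 and 0.019, adjusted 0.0026 and 0.034) to 0.57 without VDD2 and VDS1 (permutation p = 0.088, adjusted 0.16). For H2-DMa, H2-DMb1 and Ifi30, r was 0.78, 0.75 and 0.75 over 12 mice (permutation p = 0.017, 0.03 and 0.011, adjusted 0.022, 0.034 and 0.017), while rho was 0.31, 0.24 and 0.48 (permutation p = 0.33, 0.44 and 0.12, adjusted 0.43, 0.5 and 0.18). Without VDD2 and VDS1, r was 0.35, 0.23 and 0.09, so these values of r over 12 mice rest largely on those mice. With each gene centred on its diet's mean over 12 mice, rho was 0.50, 0.44 and 0.66 (adjusted permutation p = 0.14, 0.17 and 0.034). It was 0.79 for Ctss (adjusted permutation p = 0.0061) and 0.18 for Cd86 (0.57). Cd86 had r = 0.32 (rho = 0.03, permutation p = 0.3 and 0.92, adjusted 0.3 and 0.92), and r = -0.10 without the same mice. Within the 7 mice with a recorded weight, r was 0.64 for Ctss, 0.21 for H2-DMa, 0.03 for H2-DMb1, -0.01 for Cd86 and -0.20 for Ifi30, with exact permutation p-values of 0.104 and above.

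**Figure D3:**
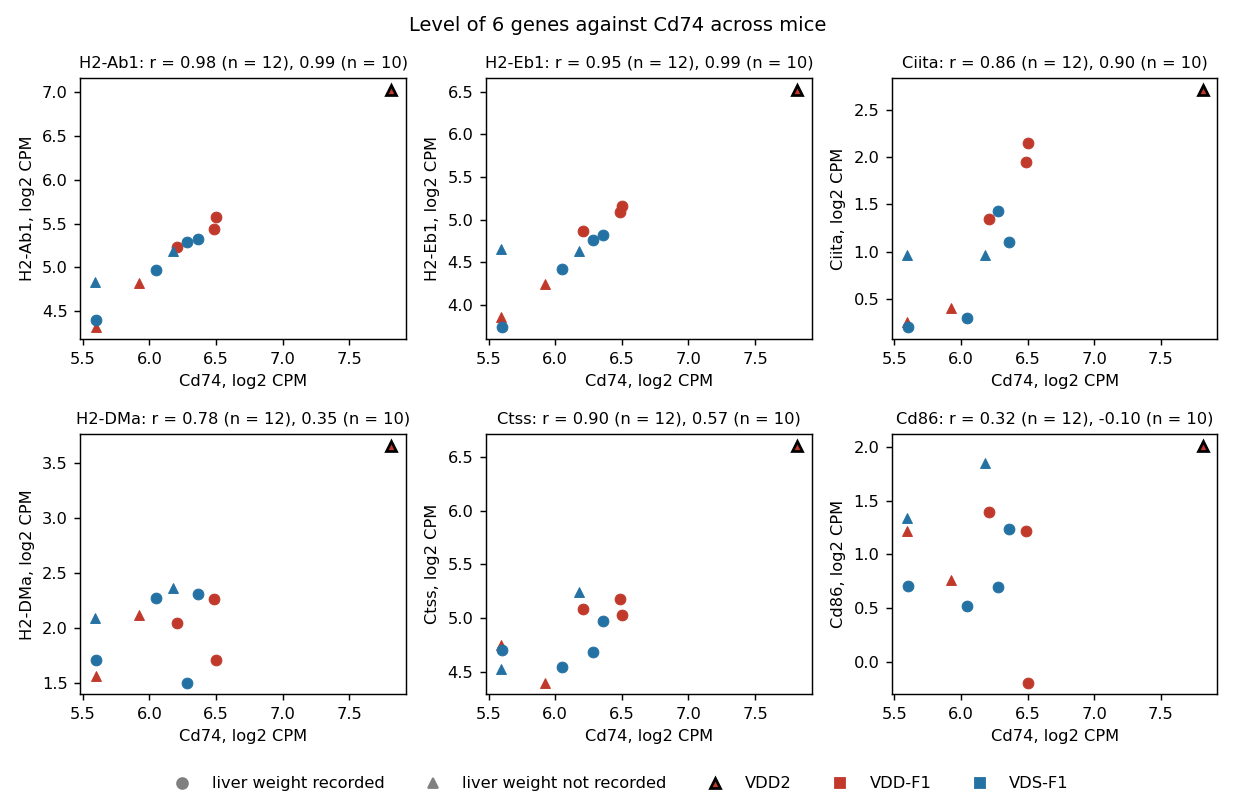
Log2 CPM of 6 genes against log2 CPM of Cd74 in 12 mice, coloured by prenatal diet and shaped by whether a liver weight is recorded; titles give r over all mice and without VDD2 and VDS1. H2-Ab1, H2-Eb1 and Ciita stay on a line without these mice (r = 0.99, 0.99 and 0.90), and H2-DMa, Ctss and Cd86 do not (r = 0.35, 0.57 and -0.10).

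The chains kept nearly fixed proportions. Per length, the ratio of H2-Aa to H2-Ab1 ranged from 0.514 to 0.650 over all 12 mice, a coefficient of variation of 7.64%, with VDD4 and VDD5 the lowest, at 0.514 and 0.519, and VDD2 the highest. The ratio of Cd74 to H2-Ab1 ranged from 2.58 to 3.71 (coefficient of variation 10.4%) and that of H2-Eb1 to H2-Ab1 from 0.836 to 1.16 (9.02%). The ratio of Ciita to H2-Ab1 varied more (28.3%) and was highest in VDD4, VDD5 and VDS6, at 0.0244, 0.0233 and 0.0178. All these ratios overlapped between the groups.

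By the pattern over 12 mice, the genes most like Cd74, H2-Aa, H2-Ab1 and H2-Eb1 (Pearson r with their mean standardized log2 CPM) were Rcn3 (r = 0.96), Apaf1 (0.95), Sema3f (0.93), Adap1 (0.93) and Sh3bgrl3 (0.93). Among 12449 other genes Ctss ranked 23 and Ciita 24. Without VDD2 Adap1 came first (r = 0.94 over 11 mice), Ciita ranked 8 (r = 0.87) and Ctss 652 (r = 0.57), so the position of Ciita did not depend on VDD2 and that of Ctss did. H2-DMa, H2-DMb1, Ifi30 and Cd86 ranked 194, 314, 807 and 2816 over 12 mice, and 2586, 4235, 4298 and 7623 without VDD2.

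Of 35 further genes of the class II pathway, 25 were tested, 5 were higher in VDD-F1 at an unadjusted p under 0.05 and 0 were lower, beside 9.55% and 6.29% of all genes. Their median log2 fold change was 0.12 (0.03 without VDD2), and none had an adjusted p under 0.05 by edgeR quasi-likelihood, Benjamini-Hochberg adjusted. The 5 were Ifngr2 (0.50) and Ifngr1 (0.52), the chains of the receptor for interferon-γ, which induces Ciita, Irf8 (0.59), a transcription factor of myeloid cells, Ctsl (0.44), a cathepsin, and March1 (0.64), a ligase that marks class II molecules for degradation. Without VDD2, 4 of them still had an unadjusted p under 0.05, beside 7.32% of genes higher, namely Ifngr2 (0.34), Ifngr1 (0.35), Irf8 (0.32) and Ctsl (0.38), and March1 was at 0.37 (unadjusted p = 0.118). In the 7 mice with a recorded liver weight 4 of 25 were higher at an edgeR adjusted p under 0.05 (Benjamini-Hochberg), Ifngr1 (0.60, adjusted p = 0.00924), Ctsl (0.50, adjusted p = 0.00243), Irf8 (0.58, adjusted p = 0.0385) and Cd83, beside 5.85% of genes, and Ifngr2 was at 0.21 (adjusted p = 0.336). The factors that bind the X and Y boxes, Rfx5, Rfxap, Rfxank, Nfya, Nfyb, Nfyc and Creb1, had log2 fold changes between -0.14 and 0.05. Irf4, Cd80, Cd40, H2-Oa and H2-Ob were below the minimum mean count. With no filter on low counts their log2 fold changes ran from 0.57 (Cd40) to 2.07 (H2-Oa). Only H2-Oa had an unadjusted p under 0.05 there (0.0306, edgeR adjusted p = 0.346), beside 8.16% of genes higher.

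Ifngr2 was at 25.6, 41.8, 29.3, 25.4, 22.9 and 20.5 CPM in VDD1 to VDD6 and at 18 to 22.9 CPM in VDS-F1. VDD1 and VDD3, which were low for Cd74 and Ciita, were thus above every VDS-F1 mouse for this receptor chain. Ifngr1 followed the other order, with VDD1 and VDD3 at 12.7 and 14.8 CPM, VDD2 at 29.4, VDD5 and VDD6 at 19.4 and 18.7, and VDS-F1 mice at 11.1 to 16 CPM.

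Class I presentation, the pathway by which all nucleated cells show peptides from their own proteins, shared the members' values only in part. Of 15 genes tested, 0 were higher and 1 was lower at an unadjusted p under 0.05 (Erap1, a peptide-trimming protease, log2 fold change -0.24, unadjusted p = 0.0155), and 3 of 15 were positive. Among all genes 9.55% were higher and 6.29% lower. In the 7 mice with a recorded liver weight 6 of the 15 were lower at an edgeR adjusted p under 0.05 (Benjamini-Hochberg), beside 5.12% of genes, namely Psmb9 (-0.89, adjusted p = 0.00396), H2-K1 (-0.38, adjusted p = 0.00972), Nlrc5, Psmb8, H2-D1 and Tap2. Over 12 mice the median was -0.13, beside 0.57 for the class II members. VDD2 was nonetheless the highest of the 12 mice for 8 of the 15, namely H2-D1, H2-T23, Tap1, Tap2, Tapbp, Psmb8, Psmb9 and Psmb10, beside 18.6% of all genes tested. Psmb9, a subunit of the immunoproteasome, was at 1.89 times the median of the other mice in VDD2, and Tap1, a chain of the peptide transporter, at 1.77 times. The abundant chaperones Calr and Pdia3 were at 0.603 and 0.619 times that median, and the summed class I level of VDD2, 5425 CPM, lay below the 5589 CPM of the lowest VDS-F1 mouse, as did those of VDD4, VDD5 and VDD6.

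**Figure D4:**
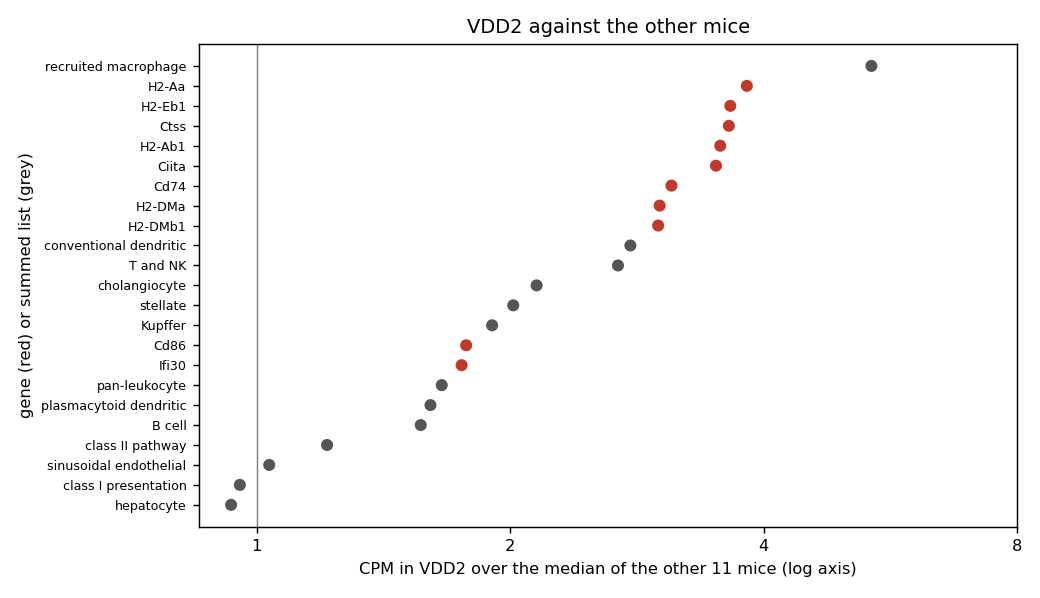
CPM in VDD2 divided by the median of the other 11 mice (log axis) for each gene (red) and for the summed CPM of each list (grey). H2-Aa is at 3.82 and Ifi30 at 1.75, the highest and the lowest of the 10 genes, and the sum of class I presentation, in which chaperones weigh heavily, is at 0.955.

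Markers of immune cells, and of stellate cells and cholangiocytes, were also high in VDD2. The summed level of 8 pan-leukocyte markers was 282 CPM in VDD2, 135 to 204 CPM in the other VDD-F1 mice and 136 to 172 CPM in VDS-F1. None of these 8 passed an unadjusted p under 0.05 in either direction, and their median log2 fold change was 0.45, and 0.06 without VDD2. Per length, Cd74 was 113 times Ptprc, the common leukocyte antigen, in VDD2, within the 59.1 to 128 of the VDS-F1 mice. The ratio of Ciita to Ptprc in VDD2 was 0.567, within the 0.285 to 0.743 of VDS-F1, and was 1.14 in VDD4, the highest of 12. Of the 10 members, 5 lay within the VDS-F1 range per Ptprc in VDD2. H2-Aa (27.6 against at most 26.0), H2-Ab1 (42.4 against at most 41.8), H2-Eb1 (39.5 against at most 38.4) and Ctss (60.2 against at most 59.8) lay just above it, and Cd86 (0.90 against at least 1.03) below it. With the pan-leukocyte score as a covariate in the edgeR fit, the log2 fold changes were 0.09 for Cd74 (95% interval -0.27 to 0.45), 0.08 for H2-Eb1, 0.04 for Ctss and 0.38 for Ciita (95% interval -0.31 to 1.07), and 0 of 10 passed an unadjusted p under 0.05, beside 6.57% of genes higher. The summed stellate markers were at 688 CPM in VDD2, at most 471 in the other VDD-F1 mice and at most 402 in VDS-F1, and the cholangiocyte markers at 48.1 CPM in VDD2 and at most 26.6 CPM in VDS-F1. The pan-leukocyte sum is carried by Lcp1, which was at 1.08 times the median of the other 11 mice in VDD2, while the other 7 markers ran from 2.58 times (Rac2) to 3.76 times (Coro1a). Hepatocyte genes were not high in VDD2, which was the highest mouse for 0 of 7. G6pc was at 0.229, Tat at 0.480, Pck1 at 0.575 and Ttr at 0.769 times the median of the other 11 mice. Cps1 was at 0.880, Alb at 0.986 and Apoa1 at 1.14 times it, and the sum of the 7 at 0.932. The part of these cells in the members' levels was not tested.

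The cell types known for class II differed in their markers. Of 8 markers of recruited macrophages, 7 were tested and all 7 were higher at an unadjusted p under 0.05, beside 9.55% of genes. Among them were Gpnmb (log2 fold change 5.72), Trem2 (3.31), Cx3cr1 (2.52) and Ccr2 (2.14). Without VDD2, 4 of 7 were higher at that threshold, beside 7.32% of genes. None of the 7 had an adjusted p under 0.05 in either fit (edgeR quasi-likelihood, Benjamini-Hochberg adjusted). Gpnmb had the lowest, 0.0627 with VDD2 and 0.0588 without it. The summed level of the recruited macrophage markers was 253 CPM in VDD2, 36.5 to 106 CPM in the other VDD-F1 mice and 35.5 to 58.8 CPM in VDS-F1. Of 10 Kupffer cell markers 0 were higher and 2 were lower, Timd4 (-0.81) and Clec4f (-0.50), beside 9.55% and 6.29% of genes, and 3 were lower without VDD2. In the 7 mice with a recorded liver weight 4 of 10 were lower at an edgeR adjusted p under 0.05 (Benjamini-Hochberg), Timd4 (-1.13, adjusted p = 0.00698), Csf1r (-0.61, adjusted p = 0.00775), Clec4f (-0.81, adjusted p = 0.0141) and Cd5l (-0.64, adjusted p = 0.0151), and 6 of 7 recruited macrophage markers were higher, where 5.12% of genes were lower and 5.85% higher. The summed Kupffer markers were at 559 CPM in VDD2, 228 to 369 CPM in the other VDD-F1 mice and 273 to 487 CPM in VDS-F1. VDD2 was the highest mouse for 7 of the 10 (Cd5l, Adgre1, Csf1r, Marco, C1qa, C1qb and C1qc), beside 18.6% of genes tested. In VDD2 these were at 1.62 to 2.86 times the median of the other 11 mice. Clec4f, Vsig4 and Timd4 were at 1.03, 1.01 and 0.619 times that median.

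The order of mice for Gpnmb, a glycoprotein of lipid-laden macrophages, was like that of Ciita in VDD-F1. Gpnmb was at 0.379, 45.4, 1.43, 18.6, 16.8 and 7.41 CPM in VDD1 to VDD6 and at most 0.592 CPM in VDS-F1. VDD2, VDD4, VDD5 and VDD6 were high for Gpnmb and highest in that order for Ciita too. In VDS-F1, Gpnmb rested on 1 to 12 counts per library.

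Many dendritic and lymphocyte markers were below the minimum mean count. The counts that follow are at an unadjusted p under 0.05, where 9.55% of all genes were higher and 6.29% lower, and 7.32% and 5.27% without VDD2. Of 8 conventional dendritic cell markers 2 were tested and 1 was higher, Itgax (2.33), which macrophages also carry. The other, Zbtb46, was at -0.13 (edgeR unadjusted p = 0.294). Flt3, Xcr1, Clec9a, Cd209a, Ccr7 and Clec10a were below the minimum. With no filter on low counts these ran from 0.76 (Ccr7) to 1.83 (Flt3). Flt3 and Clec9a (1.21) passed there, beside 8.16% of genes higher, with a lowest edgeR adjusted p of 0.175 (Flt3). The summed level of the 8 was 23.6 CPM in VDD2, at most 13.9 CPM in the other VDD-F1 mice and at most 8.97 CPM in VDS-F1. Of 4 plasmacytoid dendritic cell markers 2 were tested and 1 was higher (Bst2, 0.34), and 0 without VDD2. Of 8 B cell markers 3 were tested and 0 passed an unadjusted p under 0.05, with a summed level of 19.6 CPM in VDD2 and 5.21 to 43.3 CPM in VDS-F1, and Ms4a1 stayed under 1 CPM in every mouse. Of 8 T and NK cell markers 2 were tested and 1 was lower (Cd4, -0.91). Among sinusoidal endothelial markers 1 of 7 was higher (Lyve1, 0.39) and 2 were lower (Clec4g, -0.28, and Stab2, -0.25). Among stellate cell markers 3 of 6 were higher (Col1a1, 2.27, Dcn, 0.40, and Pdgfrb, 0.75), among cholangiocyte markers 2 of 4 (Epcam, 1.06, and Sox9, 0.52), and among hepatocyte markers 0 of 7 passed in either direction. Without VDD2, 1 stellate, 0 cholangiocyte, 0 endothelial and 1 hepatocyte markers were higher, and 2 endothelial markers were lower. None of the markers in these lists was at 0 in all mice, and their part in the members' levels was not tested.

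**Figure D5:**
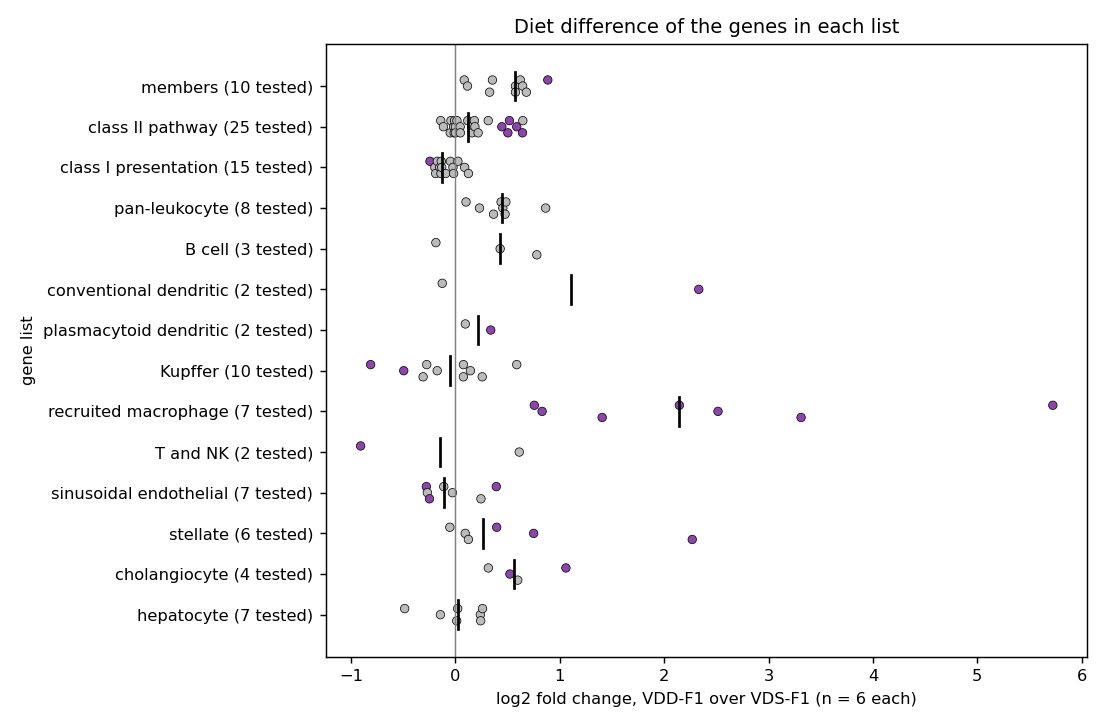
Log2 fold change of VDD-F1 over VDS-F1 for each gene tested in the members and the other lists; purple points have an unadjusted p under 0.05, grey points do not, and black bars are medians. The members' median is 0.57, that of class I presentation -0.13 and that of recruited macrophage markers 2.14.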

How the data were processed

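Liver RNA of 12 mice was sequenced after removal of ribosomal RNA (KAPA RNA HyperPrep with RiboErase). The authors trimmed and aligned the reads with STAR to mm10 and deposited gene counts (GENCODE M15, GRCm38) that were not normalized. Counts of the reverse strand were taken, which held 92.7% to 95.8% of stranded counts. Fragments that mapped to several places (6.69% to 8.92%), that were unmapped (23.5% to 37.9%) or that lay outside genes were left out of library sizes. Symbols and positions came from GENCODE M21, which held 52489 of the 52636 gene IDs.

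Genes whose counts averaged 12 or more were normalized by TMM and tested with edgeR 4.0.16 in R 4.3.3 (quasi-likelihood, legacy form, Benjamini-Hochberg adjustment over 12453 genes), where the study's methods use DESeq2. Log2 CPM used a prior count of 2. Python 3.11.15 (SciPy 1.17.1, pandas 2.3.3, NumPy 2.4.6) gave correlations and levels, and matplotlib 3.10.9 the plots. The fits were tested on simulated data.

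Named genes were the members, the 5 most like the chains and Cd74 in pattern, and up to 4 genes per list with an unadjusted p under 0.05. Others were named beyond that rule, after their values were seen. These were March1, Cd83, H2-DMb2, H2-Eb2, Zbtb46, class I genes other than Erap1, and Kupffer markers other than Timd4 and Clec4f. The pan-leukocyte and hepatocyte genes given for VDD2, the genes below the minimum mean count and the box-binding factors were also among them. The members and lists were chosen with earlier results of these data known. Alternatives were DESeq2 1.42.0, voom in limma 3.58.1, edgeR's newer form, other size factors, filter and strand, covariates, each set of mice, a replicate block, and each mouse left out. Liver weights were used only to see for which mice the study records one. Sequences came from RefSeq.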

Additional observations from a re-analysis of the deposited data

Results flagged for a closer look

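Within VDD-F1, VDD2 lay far above the other 5 mice for 8 of the 10 genes, by Dixon's criterion for a single outlying value in 6 (critical ratio 0.625). Its levels were 225 CPM for Cd74, 124 for H2-Aa, 129 for H2-Ab1, 91.3 for H2-Eb1, 12.5 for H2-DMa, 7.62 for H2-DMb1, 97.1 for Ctss and 27 for Ifi30. In all, 20 groups of 6 mice were examined (10 genes in each diet group), of which chance flags about 1 in 20, but the genes share the mouse and the library and are not separate observations. No VDS-F1 mouse was flagged for any member. The diet effect was not shown to differ between the sets of mice for any member, with a lowest interaction p of 0.108, and an edgeR adjusted p of 0.671 after Benjamini-Hochberg adjustment.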

How the results depend on the processing

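No member had an adjusted p under 0.05 in any of 25 alternatives (250 values of member and alternative, lowest adjusted p 0.0691, Ctss in mice with a recorded liver weight). Cd74, H2-Ab1, H2-Eb1, Ciita and Ctss were higher in VDD-F1 in all 25. With VDD2 left out the log2 fold change turned negative for H2-Aa (-0.00034), H2-DMa (-0.12), H2-DMb1 (-0.11), Cd86 (-0.16) and Ifi30 (-0.083), also by DESeq2 (-0.0046, -0.12, -0.12, -0.17 and -0.087) and with the set of mice as a covariate (-0.0068, -0.12, -0.11, -0.13 and -0.058), both added after the data had been seen. It was also negative with the pan-leukocyte score as a covariate (-0.026, -0.11, -0.15, -0.23 and -0.12), for Cd86 and Ifi30 with voom (-0.036 and -0.015), for Cd86 in mice without a recorded weight (-0.18) and without VDS5 (-0.016), and for Ifi30 in mice with a recorded weight (-0.14). The cause was not tested.

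Leaving out each mouse in turn, Cd74 ranged from 0.14 (without VDD2) to 0.71 (without VDD1) and Ciita from 0.56 to 1.06 for the same mice. The highest values of the members that turned negative were 0.78 for H2-Aa, 0.48 for H2-DMa, 0.46 for H2-DMb1, 0.29 for Cd86 and 0.21 for Ifi30, and 0 to 6 members had an unadjusted p under 0.05. That number was 4 with no filter on low counts (8.16% of all genes higher), 3 in mice with a recorded weight (12.9% of all genes higher), and 0 without strand (9.23%), with the set of mice (9.64%) or the pan-leukocyte score (6.57%) as a covariate, in mice without a recorded weight (2.06%), and with VDD2 left out by DESeq2 (7.14%) or with the set as a covariate (8.14%). Without the mice farthest from the median of Cd74, r was 0.35 for H2-DMa, 0.23 for H2-DMb1, 0.57 for Ctss, 0.089 for Ifi30 and -0.10 for Cd86.

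The number of all genes called was 5 with edgeR, 504 with DESeq2, 20 with edgeR's newer form, 590 with voom, 85 with no filter, 28 with the set as a covariate, 20 with the pan-leukocyte score, 1366 in mice with and 0 in mice without a recorded weight (472 at an unadjusted p under 0.05), 0 to 420 with each mouse left out, and, without VDD2, 245 with DESeq2 and 88 with the set as a covariate. Whether replicate numbers pair the mice is not given in the sources used here. Of 6 same-numbered pairs, 1 had a correlation of deviations over 0.1 and 0 correlated best with their own number, which cannot exclude a pairing. With a replicate block 19 genes were called, 0 members among them, and 0 members had an unadjusted p under 0.05 (8.26% of all genes higher). Counts of 11 to 123 per library limit Ciita and Cd86, and 26 to 146 limit H2-DMb1.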
